A study of Mus musculus with 16 samples.

Results

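The 4 mouse hairpins Mir15a, Mir16-1, Mir15b and Mir16-2 form a pair of microRNA (miRNA) clusters. They were found among 1174 annotated hairpins by exact match of adapter-trimmed reads of 18 to 26 nt, and the copies of miR-16 were summed, which left 3 names (miR-15a, miR-15b and miR-16) with 6 arms. The libraries hold small RNA of C57BL/6 mouse mesenchymal stem cells, the multipotent stromal cells of connective tissue, with 2 libraries in each of 8 groups. The wild-type group was Dicer f/f cells given mCherry, a red fluorescent protein, and the knockout group was Dicer -/- cells given mCherry. The other groups were Dicer -/- cells transfected with human Dicer (hsDicer) or with a mutant of it: D1320A in the RNase IIIA domain, D1709A in the RNase IIIB domain, D1320A/D1709A in both, K70A in the helicase domain, or Y971A/Y972A in the PAZ domain, which binds the end of the hairpin. Every group but the wild type therefore lacks mouse Dicer. The sources used here do not say whether the cells are 1 clone, what share of them was transfected, how much Dicer protein they held or whether the replicates were separate cultures. The p-values therefore rest on the spread between these libraries only, which the main test pools over all arms tested.

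Each miRNA starts as a hairpin in a longer transcript. Drosha cuts the base of the hairpin and so sets the 5′ end of the arm that comes first (5p) and the 3′ end of the arm that comes last (3p). Dicer then removes the loop, with its RNase IIIB domain cutting the 5p strand and its RNase IIIA domain cutting the 3p strand. The miR-15 and miR-16 family is known for repressing cell-cycle genes such as cyclins and the survival gene Bcl2, and the cluster in DLEU2 is lost in many human chronic lymphocytic leukaemias.

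In GRCm38, Mir15a lies at chr14:61632027-61632110 and Mir16-1 at chr14:61631880-61631972, both on the minus strand within the non-coding gene Dleu2, 54 bases apart. Mir15a is intronic, and 13 bases of Mir16-1 overlap an annotated Dleu2 exon. Mir15b lies at chr3:69009772-69009835 and Mir16-2 at chr3:69009902-69009996, both on the plus strand in introns of Smc4, which encodes a condensin subunit, 66 bases apart.

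The mature sequences below are from RefSeq (GRCm38.p6), where the mature arms of all 4 hairpins were found. Capitals mark the seed (bases 2 to 8), the part that pairs with target mRNAs, and show that the 5p arms share 1 seed while each 3p arm has its own.
miR-15a-5p: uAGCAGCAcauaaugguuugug
miR-15b-5p: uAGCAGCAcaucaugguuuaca
miR-16-5p: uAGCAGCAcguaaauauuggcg
miR-15a-3p: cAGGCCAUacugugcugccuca
miR-15b-3p: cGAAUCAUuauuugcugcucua
miR-16-1-3p: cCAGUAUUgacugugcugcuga
miR-16-2-3p: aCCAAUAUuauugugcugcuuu

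The 5p arms of miR-15a and miR-15b were identical at 18 of 22 positions, those of miR-15a and miR-16 at 16, and those of miR-15b and miR-16 at 14. Mir16-1 and Mir16-2 give the same 5p miRNA, so a miR-16-5p read of mature length does not tell which cluster it came from, whereas the 3p arms do. No read of 18 to 26 nt that matched a member also matched a hairpin of another name.

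To show where Dicer cuts, the hairpins of Mir16-1 and Mir15b are given 5′ to 3′ with both mature arms in capitals, so that the lower-case stretch between them is the loop of 20 nt in Mir16-1 and 16 nt in Mir15b.
Mir16-1 hairpin: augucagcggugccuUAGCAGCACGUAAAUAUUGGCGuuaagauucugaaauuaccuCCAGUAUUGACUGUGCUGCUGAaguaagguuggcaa
Mir15b hairpin: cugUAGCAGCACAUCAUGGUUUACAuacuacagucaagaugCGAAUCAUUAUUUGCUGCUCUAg

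Libraries held 10331036 to 20502254 inserts of 15 nt or more, and levels are given in CPM, read counts scaled to these totals. Reads of 18 to 26 nt on hairpins made up 0.293% to 47.4% of inserts, lowest in replicate 2 of the knockout and highest in replicate 1 of the wild type. Replicate 1 was read to 41 nt and replicate 2 to 51 nt, so each group holds 1 library of each kind and the values of each library are given. Replicate 1 libraries held 4 to 6 distinct miR-16-5p sequences each, against 5 to 11 in replicate 2, so the ranges overlapped. A set of 153 fragments outside hairpins was picked by rule, for at least 2000 reads each in the first wild-type library and absence from all libraries of replicate 2. The knockout replicate 1 held all 153, their reads summing to 0.235% of those in the wild type. The D1320A/D1709A replicate 1 held 44 of the 153, at 0.943%. Every other replicate 1 library held some as well, from 15 with D1709A (0.0892%, the highest share among these) to 112 with hsDicer (0.0409%). Markers of mesenchymal cells were detected for 5 of 5 names, with summed levels of 70806 and 52081 CPM in the wild-type libraries. Over all 16 libraries their sum ran from 930 to 70806 CPM, while the blood list (3 of 4 names detected) summed to 0 to 21.8 CPM. The pluripotent list (2 of 8 names detected) reached at most 59.4 CPM, the neuron list (1 of 2) 55.7 CPM and the muscle list (1 of 3) 953 CPM. The RNA of Dicer itself is not measured by libraries cut from a gel at 15 to 50 nt.

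Without Dicer, miR-16-5p fell to a small part of its wild-type level, and human Dicer brought part of it back. In replicates 1 and 2, miR-16-5p, the most abundant member of the wild-type libraries, was at 3171 and 6304 CPM in wild-type cells, at 11.2 and 67.3 CPM in knockout cells, and at 1395 and 2379 CPM in those given hsDicer. Both knockout libraries lay below every wild-type and hsDicer library, in the libraries read to 41 nt as in those read to 51 nt. As group means these were 4738 ± 2215, 39.2 ± 39.6 and 1887 ± 696 CPM (SD, n = 2).

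In edgeR's quasi-likelihood test over 539 arms, miR-16-5p was lower in the knockout than in the wild type by -6.91 on the log2 scale (SE 1.89, Benjamini-Hochberg adjusted p = 0.00862). It was higher with hsDicer than in the knockout by 5.59 (SE 1.78, adjusted p = 0.0301), and this sign turned under DESeq2's size factors, which gave -0.21 beside a median of 0 over all arms. In the knockout 1 of 6 member arms, miR-16-5p, was called lower, beside 5.75% of all arms tested, and with hsDicer 1 of 6 was called higher, beside 5.94%. The median of all arms moved by -6.95 in the knockout and by 5.82 with hsDicer against the knockout, so miR-16-5p lay 0.04 above the median arm in the first comparison and differed from it by -0.23 in the second. With factors computed by TMM, which assume that most arms keep their level, the knockout change of miR-16-5p was -2.31 beside a median of -3.05, and DESeq2 gave -0.18. Without knockout replicate 1 the change from the wild type was -6.14 (adjusted p = 0.316), and without knockout replicate 2 it was -8.72 (adjusted p = 0.103), so this call needed both. The call with hsDicer was lost without any 1 of its 4 libraries (adjusted p = 0.0570 and 0.0651 after leaving out hsDicer replicate 1 or 2, and 0.550 and 0.262 after leaving out that of the knockout). Between hsDicer and the wild type, miR-16-5p differed by -1.33 (SE 1.48, adjusted p = 1.0), beside a median of -0.85 over all arms. There, 0 of 6 arms passed edgeR's test (0% of all arms lower and 0% higher), with 0 of 6 members and 1.11% of all arms at an unadjusted p under 0.05. DESeq2 and limma called 0 members too, beside 2.04% and 0% of the arms they tested. In bulk libraries such as these, fewer cells that hold a miRNA and less of it per cell cannot be told apart.

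The other 5 arms had lower means in the knockout than in the wild type, but did not pass edgeR's test (adjusted p = 0.122 to 0.562), while limma on arms of 10 CPM or more called miR-15a-5p, miR-15b-5p and miR-16-3p as well, beside 49% of the arms it tested. The wild-type level of miR-15a-5p was 273 and 452 CPM and its knockout level 0.968 and 1.13 CPM, a difference of -8.42 (SE 3.66). With hsDicer its libraries disagreed, at 0.486 and 118 CPM, the first below both knockout libraries. miR-16-3p stood at 987 and 518 CPM in wild-type libraries, 4.94 and 9.33 CPM in knockout ones and 359 and 190 CPM where hsDicer was added, and the knockout overlapped neither group. The 3p reads of miR-16 came nearly all from Mir16-1, the copy in Dleu2: in the wild type they were at 987 and 506 CPM, against 0 and 11.9 CPM for Mir16-2.

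Knockout replicate 1 held miR-16-5p and miR-15a-5p at 0.211% of the wild-type replicate 1 reads each and miR-16-3p at 0.299%, while the 153 fragments above stood at 0.235%. The part that reads shared with the wild-type library play in the knockout level was not tested. miR-15b-5p stood at 1.54%, with 14 reads.

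miR-15b-5p was at 1.36 and 91.1 CPM in the knockout against 52.7 and 1229 CPM in the wild type, a difference of -3.79 (SE 2.27, adjusted p = 0.391). This sign turned with TMM (0.70) and with DESeq2 (3.12). The wild-type replicate 1 was below the knockout replicate 2, so the groups overlapped. In the knockout replicate 2, 1180 of the 1455 reads were 1 sequence of 26 nt that runs 4 bases into the loop, in place of the mature 22 nt. That sequence is shown with the mature part in capitals.
miR-15b piece of 26 nt: UAGCAGCACAUCAUGGUUUACAuacu

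The 26-nt piece made up 11672 of 11675 miR-15b-5p reads in hsDicer replicate 1 but 593 of 10430 in replicate 2. It was also the most read sequence of the arm in both D1709A libraries (915 of 1225 and 323 of 473 reads) and in both D1320A/D1709A libraries (9 of 13 and 1006 of 1303 reads). In the wild type it was 3 of 911 and 41 of 25203 reads. It came to 427 and 310 reads in D1320A libraries, 2 and 212 in K70A libraries and 3548 and 1033 in those of Y971A/Y972A. The piece was thus rare in the wild type, the main form in the knockout and in both groups that carry D1709A, and of very different weight in the hsDicer replicates.

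Reads that start at the miR-15b-5p end made by Drosha and run on through the loop to the end of the read were found in the knockout as well. They numbered 3 and 5066 in the knockout libraries (0.290 and 317 CPM), 0 and 108 in the wild type (0 and 5.27 CPM) and 2087 and 2276 with hsDicer (145 and 121 CPM). The D1709A libraries held 52.3 and 91.8 CPM of them, the D1320A libraries 120 and 60.04 CPM, and those of the double mutant 0.182 and 50.1 CPM. K70A and Y971A/Y972A had 0 in replicate 1, and 12.95 and 11.3 CPM in replicate 2. The span from the 5p start to the 3p end is 60 nt in Mir15b, longer than the reads and than the gel range. The corresponding reads of Mir15a, Mir16-1 and Mir16-2 reached at most 16.03, 10.2 and 16.2 CPM in any library. Of the 4 hairpins, Mir15b was thus the one with the most such reads in every library that held any of its own.

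**Figure D1:**
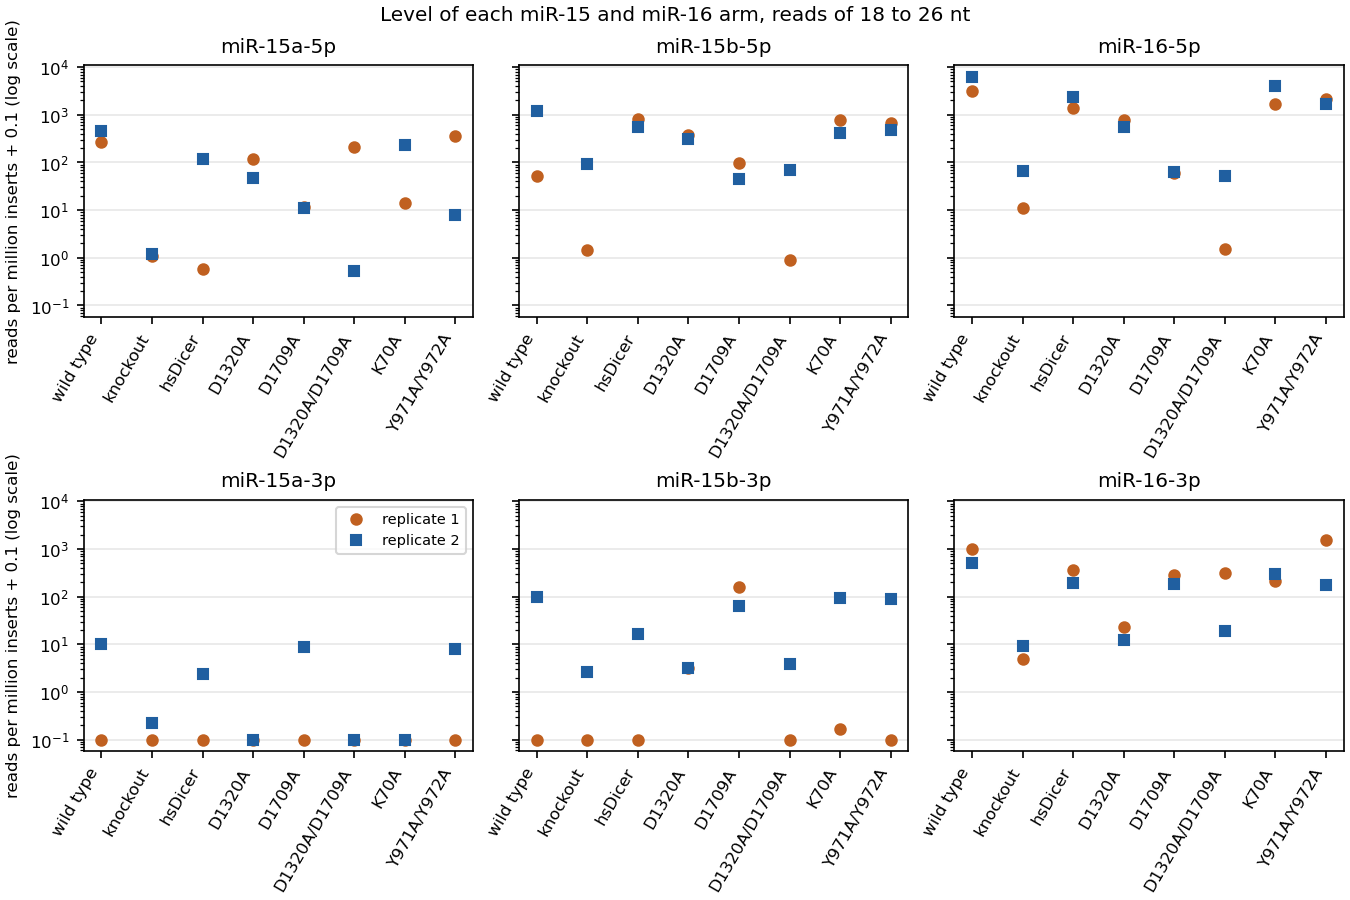
Level of the 6 arms in each of the 16 libraries, as CPM + 0.1 on a log axis, with circles for replicate 1, squares for replicate 2 and points on the lowest line for 0 reads. miR-16-5p drops from 3171 and 6304 CPM (wild type) to 11.2 and 67.3 CPM (knockout), and miR-16-3p is low, 23.4 and 11.99 CPM, where D1320A was given.

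The mutants of the single RNase III domains differed in which arm was left. Where D1320A had been given, the mutant of the domain that cuts the 3p strand, nearly all reads of miR-15b and miR-16 were of the 5p arm, and where D1709A had been given, the mutant of the domain that cuts the 5p strand, most were of the 3p arm. For miR-15b the 5p arm held 100% and 97.1% of reads with hsDicer too, so D1320A did not stand apart from hsDicer there. The level of miR-16-5p was 765 and 563 CPM in D1320A libraries and 61.1 and 61.7 CPM in D1709A libraries, beside 1395 and 2379 CPM for hsDicer. The level of miR-16-3p was 23.4 and 11.99 CPM in D1320A libraries and 279 and 184 CPM in D1709A libraries, beside 359 and 190 CPM for hsDicer. For miR-16-5p no group overlapped another, while the miR-16-3p values of D1709A and hsDicer overlapped and those of D1320A lay below both.

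edgeR's test of levels called 0 of 6 member arms for either single mutant against hsDicer, where 2.04% of all arms (11 of 539) were lower with D1320A and 3.34% (18 of 539) with D1709A. At an unadjusted p under 0.05 the members numbered 0 with D1320A and 1 with D1709A, beside 7.24% and 10.6% of all arms. DESeq2 called 0 members in both, beside 8.91% and 5.94% of all arms. The difference of miR-16-5p with D1709A was -4.94 (SE 1.72, adjusted p = 0.102), beside a median of -2.21 over all arms. limma called it (adjusted p = 0.00353), as did edgeR on the 202 arms with a mean of 10 CPM or more (adjusted p = 0.0176), on reads at mature ends (0.0312) and with the replicate number as a block (0.0220). These fits called 23.8%, 14.9%, 4.57% and 4.45% of the arms they tested. Without D1709A replicate 1 or 2 its adjusted p in edgeR's test was 0.777 or 0.921. Under all 3 other scalings it stayed below hsDicer (-5.28 to -1.81). With D1320A, miR-16-5p differed from hsDicer by -1.51 (SE 1.49, adjusted p = 0.872) and miR-16-3p by -3.95 (SE 2.38, adjusted p = 0.798), beside a median of -0.67. miR-16-3p with D1709A differed by -0.25 (SE 2.11, adjusted p = 1.0), and its sign turned with TMM (2.02) and DESeq2 (2.60). Directly between D1320A and D1709A, 0 of 6 arms were called (1.3% of all arms were higher and 0.742% lower), with 1 of 6 at an unadjusted p under 0.05, beside 10% of all arms. DESeq2 called 2 there, miR-15a-3p and miR-16-3p, both lower with D1320A, beside 15.2% of all arms. limma called 0, beside 22.3% of the arms it tested. miR-16-5p was 3.43 higher with D1320A (SE 1.60, adjusted p = 0.388).

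The share of 5p reads among the 5p and 3p reads of a name compares both arms within 1 library and needs no scaling between libraries. In replicates 1 and 2 the share of miR-16 came to 97.0% and 97.9% for D1320A, to 17.95% and 25.2% for D1709A and to 79.5% and 92.6% for hsDicer. The exact 95% intervals (Clopper-Pearson, counting error only) were narrow, for example 16.8% to 19.1% for the first D1709A library. D1320A lay above, and D1709A below, both hsDicer libraries and both wild-type libraries, which were at 76.3% and 92.4%.

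For miR-15b the D1320A libraries had 99.2% and 99.0% of reads on the 5p arm, the D1709A libraries 37.3% and 41.4%, and the hsDicer libraries 100% and 97.1%. Both D1709A values lay below those of all other libraries, of which the lowest was 81.4%. With reads of 15 to 30 nt they were 40.5% and 41.4%, and knockout replicate 1, with 14 of 41 reads on the 5p arm (34.1%), lay below them. When only reads with both ends within 2 nt of the mature ends were counted, the miR-15b share in D1709A libraries was 13.1% and 18.3%, the 26-nt pieces being left out. miR-15b-3p was at 161 and 64.6 CPM in D1709A libraries, the first of these the highest level of any library, beside 0 and 16.7 CPM for hsDicer and 0 and 101 CPM for the wild type.

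The mean 5p share of miR-16 was 97.5 ± 0.62% with D1320A and 21.6 ± 5.1% with D1709A (SD, n = 2), a difference of 75.9 percentage points. That of miR-15b was 99.1 ± 0.13% and 39.4 ± 2.9%, a difference of 59.7 points. An exact permutation test, 2-sided, gave p = 0.333 for both, the smallest that 2 against 2 libraries allow. Of the 9 share comparisons made, 5 gave this smallest value and 4 gave 1.0, so the smallest adjusted p over them was 0.6. In edgeR's interaction test of the 5p to 3p ratio over 183 names, 0 of 3 members were called between D1320A and D1709A, and 0 of 3 for either mutant against hsDicer, as were 0% of all names in each. The ratio difference of miR-16 between D1320A and D1709A was 7.17 log2 units (SE 4.37, adjusted p = 0.305) and that of miR-15b was 7.40 (SE 4.83, adjusted p = 0.346). At an unadjusted p under 0.05 there were 0 of 3 members in each ratio comparison, and limma with a pseudocount of 0.5 called 0 members too, beside 26.2% of all names between D1320A and D1709A. With a pseudocount of 5 it called miR-16 there (adjusted p = 0.0442), beside 27.9% of all names.

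miR-15a showed no such split over both libraries. Its 3p arm was seen in 5 of 16 libraries only, all of replicate 2, with 2 to 204 reads. In the D1709A libraries it numbered 0 and 92 reads, beside 151 and 115 reads of the 5p arm. With D1320A it was 0 in both libraries, which allows up to 0.199 and 0.246 CPM (3 reads), while the 5p arm was at 118 and 47.1 CPM.

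**Figure D2:**
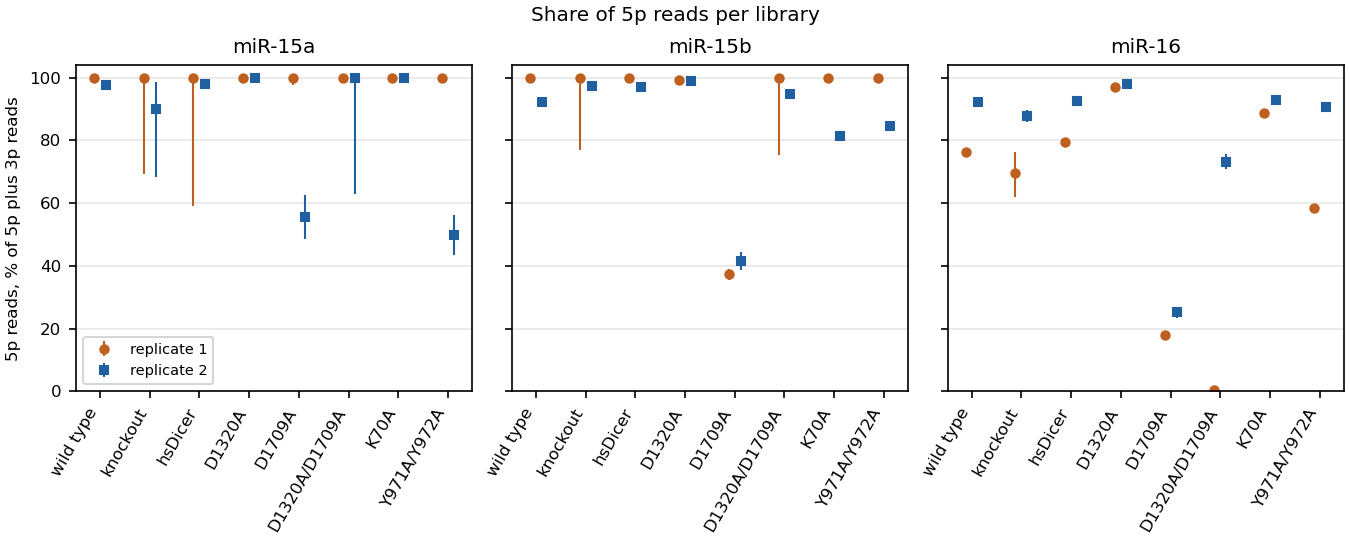
5p reads as a percentage of 5p plus 3p reads for miR-15a, miR-15b and miR-16 in each library, with exact 95% intervals, circles for replicate 1 and squares for replicate 2. For miR-16 the D1320A libraries are at 97.0% and 97.9% and the D1709A libraries at 17.95% and 25.2%.

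In D1320A libraries the 3p strand of these hairpins was found still joined to the loop. Reads that start within 3 nt of the first loop base and run to the 3p end, or to the end of the read, numbered 42384 and 12585 on Mir16-1 with D1320A (2806 and 1034 CPM). In the other 14 libraries they numbered 0 to 37 (at most 1.95 CPM). On Mir15a they numbered 5126 and 1248 with D1320A (339 and 102 CPM), beside 0 to 36 elsewhere. On Mir15b the counts were 4004 and 1438 (265 and 118 CPM), beside 0 to 3 elsewhere. The D1320A libraries thus stood apart from all others on 3 of the 4 hairpins, in both replicates.

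The main products are shown in the next lines, with the mature 3p arm in capitals and the loop, with any base past the annotated 3p end, in lower case. Each begins directly after the last base of the 5p miRNA.
Mir16-1 loop plus 3p, 43 nt: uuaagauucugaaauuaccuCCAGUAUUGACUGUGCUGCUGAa
Mir15a loop plus 3p, 37 nt: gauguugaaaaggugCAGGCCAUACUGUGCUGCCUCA
Mir15b loop plus 3p, 38 nt: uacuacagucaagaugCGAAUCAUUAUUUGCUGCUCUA

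The Mir16-1 product of 43 nt was seen whole only in the longer reads of replicate 2, where it made up 9890 of 12585 such reads with D1320A. In replicate 1, 32144 of the 42384 were 1 sequence of 41 nt with the same start, which fills the whole read. The Mir15a product was 3950 of 5126 and 581 of 1248 reads, and the Mir15b product 3378 of 4004 and 1130 of 1438 reads. On Mir15a in D1320A replicate 2 a form of 35 nt, which starts 2 bases later, was more frequent at 667 reads.

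Mature 3p reads of the same hairpins were few with D1320A: 209 and 6 on Mir16-1, 0 and 0 on Mir15a, and 2 and 0 on Mir15b. The uncut form was therefore 99.5% (exact 95% interval 99.4% to 99.6%) and 99.95% (99.90% to 99.98%) of both forms together on Mir16-1. With hsDicer it was 0.0193% and 0.849%, and in the wild type 0.0117% and 0%. On Mir15a in hsDicer replicate 2, at low counts, 36 of 78 reads were uncut, or 46.2% (34.8% to 57.8%), all of them 1 sequence. Mir16-2 gave 75 and 0 uncut reads with D1320A, beside 1 and 0 mature 3p reads, and 40 in the knockout replicate 2. Against the 2806 CPM of Mir16-1 in the same library, Mir16-2 was at 4.97 CPM.

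**Figure D3:**
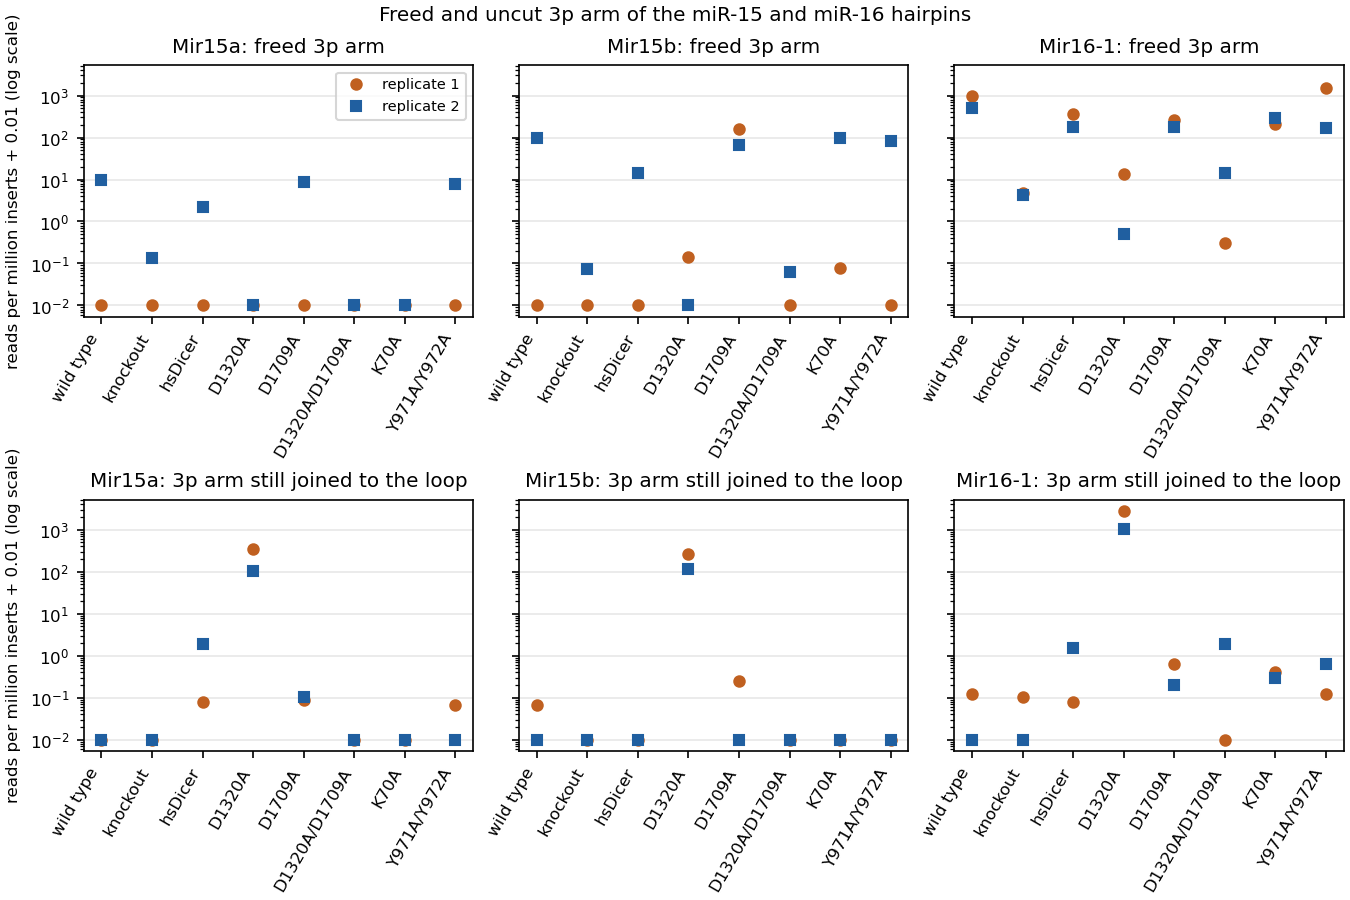
Level of the freed 3p arm (top) and of the 3p arm still joined to the loop (bottom) for Mir15a, Mir15b and Mir16-1 in each library, as CPM + 0.01 on a log axis, with circles for replicate 1 and squares for replicate 2. The joined form reaches 2806 and 1034 CPM on Mir16-1 with D1320A and is at most 1.95 CPM in the other 14 libraries.

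With D1709A, the mirror product, the 5p arm with the loop, was seen to its end on Mir16-2 alone. This counts reads from the 5p start that ended, short of the read's own end, within 3 nt of the loop's last base. They numbered 0 and 120 on Mir16-2 (0 and 11.6 CPM), and 0 in both D1709A libraries on Mir16-1, Mir15b and Mir15a. Such reads were not limited to D1709A. On Mir16-2 hsDicer replicate 2 held 33, on Mir16-1 D1320A replicate 2 held 56, and on Mir15b D1320A/D1709A replicate 2 held 50. On both miR-16 hairpins that product would be longer than the reads of replicate 1. With D1709A in that replicate, 35 reads on Mir16-1 and 207 on Mir16-2 ran from the 5p start to the end of the read. That end lies within 3 nt of the loop's last base on both hairpins. D1320A replicate 1 held 41 and 56 such reads, more than D1709A on Mir16-1 and fewer on Mir16-2. Where these inserts ended was not seen, so the counts do not show how common the product was. Shorter 5p extensions were present: with D1709A replicate 1, 424 of the 782 miR-16-5p reads ran 3 or 4 bases into the Mir16-2 loop, and in replicate 2 they were 111 of 639. Their level was 33.1 and 10.7 CPM with D1709A, 20.3 and 8.54 CPM with D1320A, while in the knockout it was 0 and 12.1 CPM and for hsDicer 0 and 12.6 CPM, so they were not limited to D1709A. On Mir15a, 448 reads in D1709A replicate 1 ran further into the loop, and 0 in replicate 2, against 0 to 110 in the libraries of other groups.

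**Figure D4:**
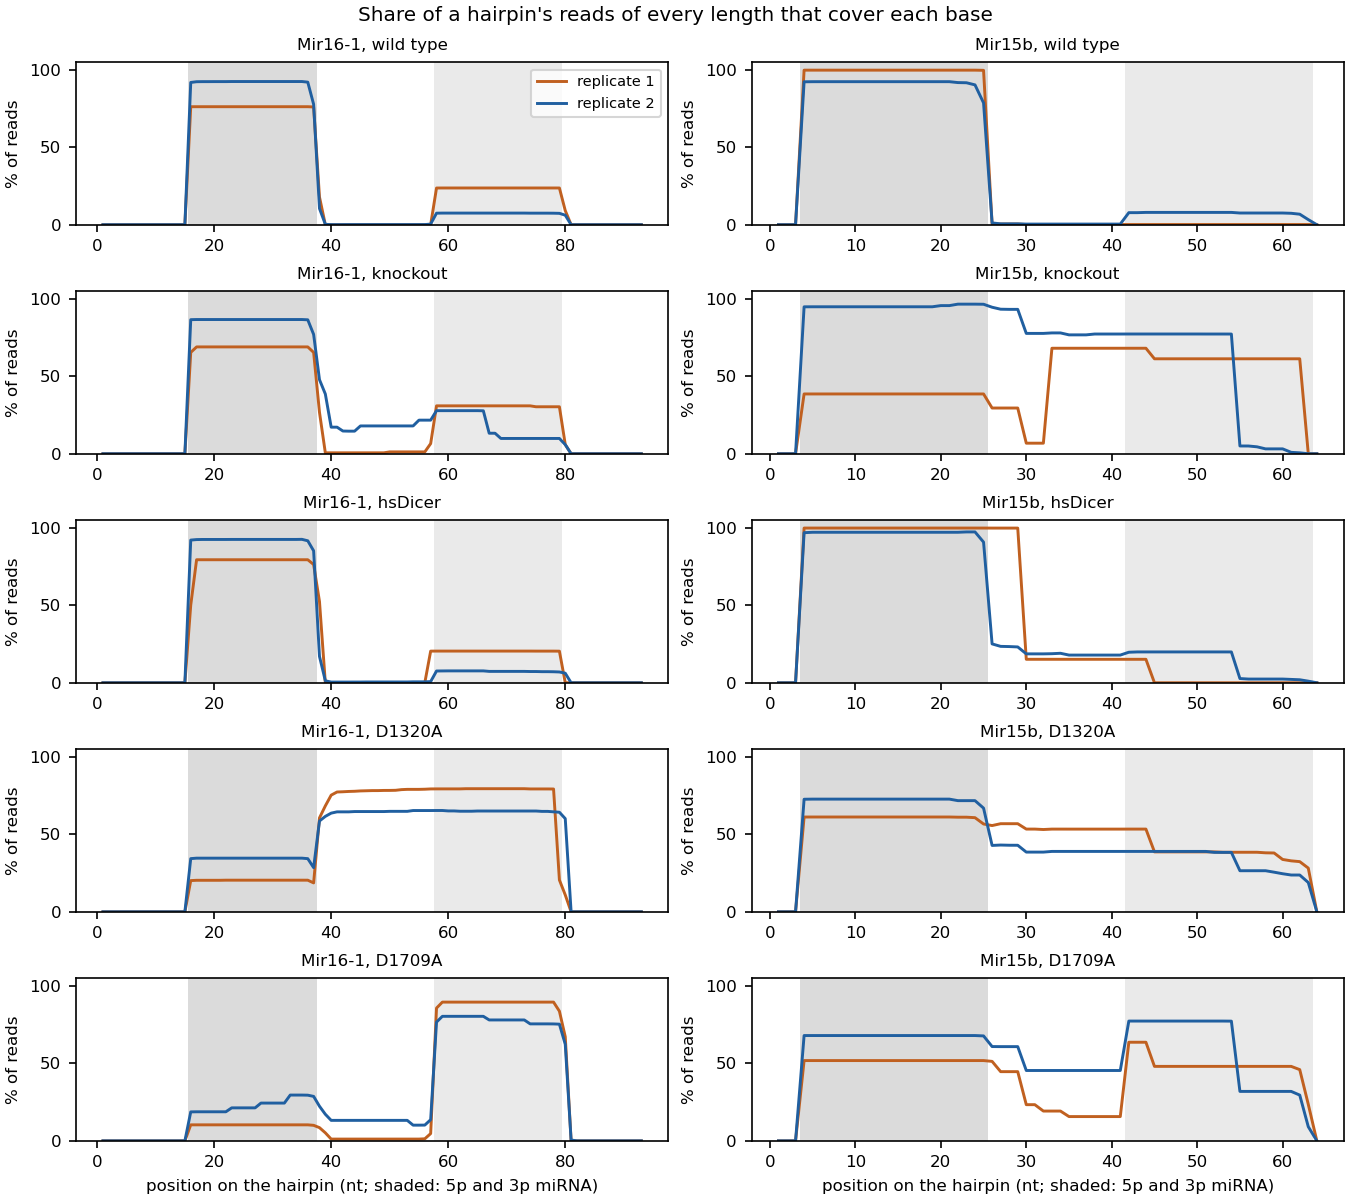
Share of the reads of Mir16-1 (left) and Mir15b (right) that cover each base of the hairpin, over reads of every length, in 5 groups (1 line per replicate, shading for the mature 5p and 3p arms). In D1320A libraries the loop of Mir16-1 is covered about as highly as its 3p arm, in the wild type hardly at all, and miR-16-5p reads that match both copies are included.

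With the double mutant D1320A/D1709A, miR-16-5p was low, at 1.397 and 52.0 CPM, beside 11.2 and 67.3 CPM in the knockout. Against hsDicer the difference was -6.14 (SE 1.82, adjusted p = 0.0142 by edgeR's quasi-likelihood test), beside a median of -5.98 over all arms. With TMM it was -2.28 and with DESeq2 -0.22, neither past the threshold, and without replicate 1 of the double mutant it was -5.18 (adjusted p = 0.333). Of the 6 arms, 1 was called lower, beside 7.98% of all arms. DESeq2 called 3 others with its own scaling, miR-15a-3p lower and miR-15a-5p and miR-16-3p higher, beside 6.31% of all arms. The loop-plus-3p reads seen with D1320A alone were 0 and 37 on Mir16-1 here.

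Other arms of the double mutant rested on single sequences in replicate 1. miR-16-3p was at 314 and 19.0 CPM, and 99.9% of the 5170 reads in the first library were 1 sequence of 25 nt that starts in the loop and ends 5 bases before the annotated 3p end. miR-15a-5p was at 210 and 0.421 CPM, and 99.8% of its 3449 reads were 1 sequence of 24 nt. Counted at mature ends, miR-16-3p in replicate 1 came to 5 reads in place of 5170.

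In the K70A and Y971A/Y972A libraries miR-16-5p overlapped hsDicer. K70A gave 1674 and 3969 CPM, and Y971A/Y972A gave 2168 and 1655 CPM. edgeR called 0 of 6 arms in either comparison, as it did 0% of all arms in each direction, with 0 of 6 at an unadjusted p under 0.05 in both, beside 0.371% of all arms for K70A and 2.23% for Y971A/Y972A. limma called 0 members, beside 0% and 0.99% of the arms it tested. DESeq2 called 1 (miR-15a-3p, lower) for K70A and 0 for Y971A/Y972A, beside 2.97% and 4.64% of all arms. The intervals were wide: with K70A the miR-16-5p difference was 0.58 (95% interval -2.29 to 3.45) and with Y971A/Y972A it was 0.02 (-2.84 to 2.88), so these data do not show that the mutants act like hsDicer. The sign for K70A turned with TMM (-0.35) and the one for Y971A/Y972A when libraries were scaled to inserts on no hairpin (-0.10). For K70A the 5p share of miR-16 was 88.7% and 92.9%, and for Y971A/Y972A it was 58.4% and 90.5%. The miR-16-3p level of Y971A/Y972A was 1542 CPM in replicate 1, the highest of any library, and 173 CPM in replicate 2.

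Over all groups, the mean level of miR-16-5p ran from the wild type through K70A, Y971A/Y972A and hsDicer to D1320A, D1709A, the knockout and the double mutant. Neighbours in this order overlapped, except that D1320A lay below every library of the 4 groups above it and above every library of the 3 groups below it. For miR-15b-5p the order of means was hsDicer (683 ± 180 CPM), wild type (641 ± 832), K70A (598 ± 261), Y971A/Y972A (585 ± 135), D1320A (341 ± 45.3), D1709A (70.7 ± 35.4), knockout (46.2 ± 63.5) and double mutant (34.7 ± 47.9). Its first 4 groups overlapped, as did its last 3, and D1320A lay within the range of the wild type. The wild type, at 52.7 to 1229 CPM, also overlapped each of the last 3. Their highest libraries were at 95.7 (D1709A), 91.1 (knockout) and 68.6 CPM (double mutant). The place of hsDicer in this order rests on the 26-nt piece. Counted at mature ends its libraries held 3 and 9806 reads (0.208 and 522 CPM), so that its mean of 261 ± 369 CPM came after the wild type (635 ± 824), K70A (590 ± 271), Y971A/Y972A (447 ± 45.8) and D1320A (311 ± 46.3), and its range took in D1320A. For miR-15a-5p the spread within groups reached 273 to 452 CPM in the wild type and 0.421 to 210 CPM in the double mutant, and both knockout libraries lay below every wild-type, D1320A and D1709A library.

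The 3′ end of miR-16-5p is the one that Dicer makes. Among reads that match Mir16-1, it lay at its usual base, the last of the RefSeq sequence, in 76.4% and 72.8% of wild-type reads, 30.1% and 74.0% of hsDicer reads, 82.1% and 68.8% of D1320A reads and 75.9% and 83.7% of K70A reads. The share was 17.6% and 33.0% for D1709A (of 358 and 524 reads) and 0.0626% and 67.2% for Y971A/Y972A. In the Y971A/Y972A replicate 1, 89.8% of the reads were 1 sequence of 21 nt, 1 base shorter, which replicate 2 did not share as its main form. Over these reads the D1709A values lay under both wild-type values, but overlapped those of hsDicer, whose replicates disagreed. Reads that run 3 or 4 bases into the Mir16-2 loop do not match Mir16-1 and were left out. They numbered 424 and 111 with D1709A and 237 in hsDicer replicate 2. The shares and their overlap are thus not those of all miR-16-5p reads. Against hsDicer the difference was 27.8 percentage points for K70A (exact permutation, 2-sided, p = 0.333) and -18.4 points for Y971A/Y972A (p = 0.667), and over the 54 end comparisons made the smallest adjusted p was 1.0. The 5′ end of miR-16-5p, which Drosha makes, was at its usual base in at least 83.8% of reads in 15 libraries and in 63.1% in hsDicer replicate 1.

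The end of miR-16-3p made by Dicer is its 5′ end. On Mir16-1, 90.7% and 89.7% of D1709A reads started at the usual base. The wild-type libraries had 99.9% and 94.8% there, and the D1320A libraries 4.40% and 3.42%. Of the 273 and 146 3p reads on Mir16-1 with D1320A, 209 and 6 had both ends within 2 nt of the mature ends. In hsDicer the replicates disagreed again, at 0.155% and 95.6%, the first with 99.6% of its reads in 1 sequence that starts 1 base earlier.

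Other loci share the seed of the family. Of the list Mir195a, Mir497, Mir322, Mir503, Mir1907, Mir6342, Mir103-1, Mir103-2 and Mir107, RefSeq gives the seed AGCAGCA to miR-195a-5p, miR-497a-5p, miR-322-5p and miR-6342, while miR-503-5p has AGCAGCG and miR-103-3p and miR-107-3p have the shifted GCAGCAU. The 10 arms of this list that could be tested gave 0 calls in every comparison except 1, with 0 to 3 at an unadjusted p under 0.05. There were 2 for the knockout against the wild type (17.8% of all arms), for hsDicer against the knockout (15.2%) and for D1320A against D1709A (10%). Against hsDicer there was 1 each with D1320A (7.24%) and D1709A (10.6%). The comparison of D1320A/D1709A with hsDicer had 3, where 15.8% of all arms were at an unadjusted p under 0.05 and 7.98% were called. Its 1 call was miR-322-5p, lower with D1320A/D1709A than with hsDicer by -9.36 (SE 3.04, adjusted p = 0.0303 by edgeR's quasi-likelihood test). Its level was 1779 and 1466 CPM in wild-type libraries, 5.52 and 10.02 CPM in knockout ones, 724 and 245 CPM for hsDicer and 0.668 and 0.789 CPM for the double mutant. For D1709A it was 0.859 and 2.70 CPM and for D1320A 56.4 and 56.3 CPM, D1709A being the lower group as for miR-16-5p. In the knockout, the median change was -6.41 over the 6 member arms, -8.01 over the 10 arms of this list and -6.95 over all arms.

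The arms whose log2(CPM + 1) followed miR-16-5p most closely over the 16 libraries, among 197 other arms with a mean of 10 CPM or more, were miR-96-5p (Pearson r = 0.972), miR-199a-5p (0.946), miR-24-5p (0.934), miR-26a-5p (0.928) and miR-30c-5p (0.926). The same libraries and their miRNA content enter every such value. Among the members, miR-15b-5p came closest (0.877), followed by miR-16-3p (0.466) and miR-15a-5p (0.427).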

How the data were processed

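Small RNA of 16 libraries was measured. Per the labels' protocols, Trizol was used to extract RNA, a gel slice of 15 to 50 nt was taken and a standard Illumina library was made. The deposited values are counts of each distinct untrimmed read, made by the authors with tools the sources do not name. The adapter was trimmed where 12 bases matched, or 5 at the read end, so whole inserts were visible up to 36 nt (replicate 1) or 46 nt (replicate 2). On long member reads, adapter ends of 1 to 4 bases were removed as well. Inserts of at least 15 nt set the library size. Intervals of shares and limits at 0 reads cover counting error only, while those of log2 changes (1.96 SE by edgeR) include the spread between libraries. Reads of 18 to 26 nt were matched exactly to the sense strand of GENCODE M21 hairpins on GRCm38 (1174 hairpins, 1087 names) and split into arms at the hairpin midpoint, and reads matching several names were dropped. edgeR 4.0.16 (glmQLFit and glmQLFTest, all 16 libraries, group as the only term) tested the 539 arms that had 20 reads or more over all libraries, with Benjamini-Hochberg adjustment and a threshold of 0.05. Its estimate of spread was drawn fully from all arms (infinite prior degrees of freedom, common biological coefficient of variation 2.10). An SE of that test is thus not the spread of the arm's own libraries. The ratio test added library and arm-by-group terms over 183 names. limma 3.58.1 on log2(CPM + 1) and DESeq2 1.42.0, in R 4.3.3, were alternatives, as were other scalings, filters and read matches. Scripts were tested on simulated data. All arms of the members were named, with a seed family list and the 5 arms most like miR-16-5p. Members and lists were chosen with earlier results of these data known.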

Additional observations from a re-analysis of the deposited data

How the results depend on the processing

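Of 445 alternative values, 369 kept their direction and their side of the threshold, or moved little. They take in member counts of 0 that stayed at 0. They also take in exact permutation tests of 2 against 2 libraries, where p cannot fall under 0.333. These could not change side, so the tally is no measure of how firm the results are. The number of member arms called moved as follows, with the number of all arms called in brackets (of 539, or of 202 at 10 CPM or more and with limma, 416 at mature ends and 169 with limma at mature ends). In the knockout against the wild type (1 [31]) it was 0 [5] with TMM, 0 [27] with DESeq2, 2 [70] on arms of 10 CPM or more, 4 [99] with limma and 4 [89] with limma on reads at mature ends, and 0 to 1 [8 to 30] when 1 library was left out. For hsDicer against the knockout (1 [32]) it was 0 [4] with TMM, 0 [22] with DESeq2, 3 [85] with limma and 2 [71] with limma at mature ends, and 0 [5 to 35] without any 1 library. For D1320A/D1709A against hsDicer (1 [43]) it was 0 [1] with TMM, 3 [34] with DESeq2, 2 [77] with limma and 2 [74] with limma at mature ends, and 0 to 1 [10 to 54] without 1 library. For D1709A against hsDicer (0 [18]) it was 1 on arms of 10 CPM or more [30], with limma [48], with the replicate block [24], at mature ends [19] and with limma at mature ends [48]. For D1320A against hsDicer (0 [11]) it was 1 [27] with limma at mature ends, for K70A (0 [0]) it was 1 [16] with DESeq2, and for D1320A against D1709A (0 [11]) it was 2 [82] with DESeq2 and 3 [63] with limma at mature ends. The ratio test of D1320A against D1709A (0 [0 of 183 names]) gave 1 [51] with limma at a pseudocount of 5 and 2 [62 of 142] with limma at mature ends. The mean Mir15b loop-plus-3p level in D1320A was 65.2 CPM in place of 192 CPM when short adapter ends were kept. Signs turned for miR-15b-5p in the knockout (0.70 with TMM, 3.12 with DESeq2), miR-16-5p with hsDicer against the knockout (-0.21 with DESeq2), miR-16-3p with D1709A (2.02 with TMM, 2.60 with DESeq2, and -0.63 to 0.29 without 1 library), miR-16-5p with K70A (-0.35 with TMM, and -0.17 to 1.07 without 1 library) and miR-16-5p with Y971A/Y972A (-0.10 when scaled to inserts on no hairpin, and -0.32 to 0.45 without 1 library). The miR-15b ratio difference of D1320A against hsDicer, -2.99, was 7.43 at mature ends, 7.88 with limma at mature ends and -9.80 to 1.72 without 1 library. The cause of these changes was not tested. Mature-end counting and the kept adapter ends were chosen after seeing the data. Replicate numbers were not taken as pairs in the main fit. Over 28 pairs of groups, the deviations of replicate 1 from its group mean correlated at 0.047 to 0.459 (median 0.198), with 25 over 0.1. Libraries of the same number thus shared part of their deviation, and the number also goes with read length. With the replicate block, 52 arms were called in the knockout in place of 31, and 22 between D1320A and D1709A in place of 11. Of the member counts, the block moved that of D1709A against hsDicer alone. With 2 libraries a group, a lone library was assumed to vary like the other groups.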
